A study of Mus musculus with 12 samples.

Results

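The 36 genes described here encode aminoacyl-tRNA synthetases, 20 of the cytosol and 16 of the mitochondrion. They were taken by symbol from the 24221 rows of a deposited comparison of mouse leukaemia cells, with symbols that end in 2 counted as mitochondrial. All 36 had a row and an adjusted p-value there. The cells, of C57BL/6 strain, are an acute myeloid leukaemia driven by the MLL-AF9 fusion, with loxP-flanked Riok2 alleles (Riok2fl/fl). One group of 3 samples received hydroxytamoxifen (OHT), which activates tamoxifen-dependent Cre recombinases, and the other 3 samples received its vehicle ethanol (EtOH), each for 72 h. Riok2 encodes an atypical kinase of small ribosomal subunit maturation. The sources used here do not give the form of Cre in the cells, its promoter, or whether the cells came from 1 clone. The labels list no group that received OHT without floxed alleles, so effects of OHT or of Cre itself cannot be told apart from loss of Riok2. A further 6 samples, MLL-AF9 cells with DMSO or 1 µM of a RIOK2 inhibitor, are not analysed here.

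Most synthetases join 1 amino acid to its matching tRNAs, the step that gives the genetic code its meaning before the ribosome is reached. Cytosolic and mitochondrial translation use largely separate enzymes, all encoded in the nucleus, and most mitochondrial enzymes serve only the few respiratory chain proteins made in that organelle. Uncharged tRNA activates the kinase GCN2, which leads to translation of the transcription factor ATF4, and many cytosolic synthetase genes are known ATF4 targets.

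For each gene the table holds a base mean (normalised reads averaged over the libraries), a log2 fold change, and the standard error (SE) of that change, but nothing per sample. The base means add up to 20307700 normalised reads, and the raw depth of the libraries is unknown. Riok2 had a log2 fold change of -3.60 ± 0.20 (SE) in the authors' deposited table, and all folds are read as OHT over EtOH on that ground. Genes with an adjusted p-value under 0.05 there are called lower or higher. Of the 13814 genes tested, 23.4% were lower and 25.5% were higher in OHT by that rule. All 7 myeloid markers examined were present (3 lower, 2 higher and 2 not called), with base means of 321 to 34343 in the authors' deposited table. On the log2 scale the integrin gene Itgam stood at 2.44 ± 0.12 and the leukocyte antigen gene Ptprc at 1.10 ± 0.12 in the authors' deposited table. The granule peroxidase gene Mpo stood at -2.37 ± 0.23, Hoxa9 at -0.55 ± 0.19 and Meis1 at -0.41 ± 0.14, and the progenitor markers Kit (0.31 ± 0.26) and Cd34 (1.05 ± 0.60) were not called in the authors' deposited table. Among 10 markers of T, erythroid, stromal and endothelial cells the T cell genes Cd3e and Cd8a and the globin gene Hba-a1 had a base mean of 0. The endothelial marker Cdh5 had 0.83, and Pecam1, which myeloid cells also express, had 1579 in the authors' deposited table. Only 5 of the 10 had an adjusted p-value. The 1 called among these was the collagen gene Col1a1, at 1.48 ± 0.55 with a base mean of 35.3 in the authors' deposited table. In bulk RNA, fewer cells of a type and less RNA per cell cannot be told apart, and the part of the changes in these myeloid markers in the results below was not tested.

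All 20 cytosolic synthetase genes fell in OHT and none rose. Their log2 fold changes ran from -1.57 to -0.44 with a median of -1.14, a level of 45.3% of that in EtOH, in the authors' deposited table. Over all genes tested the median was 0.05, and 31.5% of the 3560 genes at or above the lowest cytosolic base mean (1442) were lower. A fall of at least 2-fold was called in 14 of the 20, beside 7.30% of all genes tested.

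**Figure D1:**
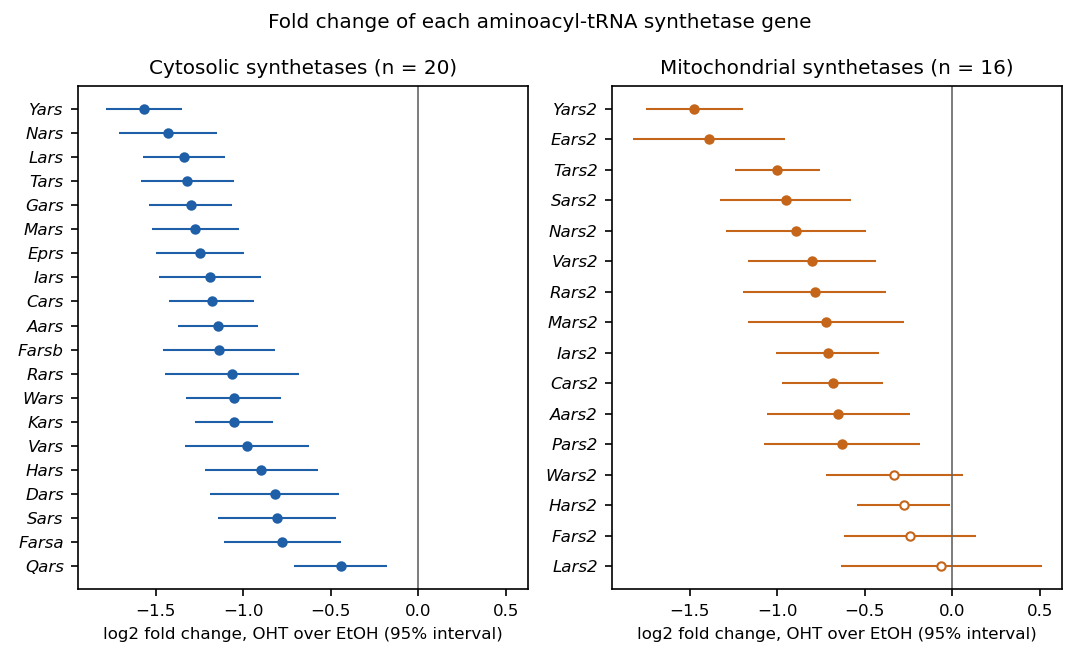
Log2 fold change of each synthetase gene, OHT over EtOH, with 95% intervals computed with the SEs of the authors' deposited table, for 20 cytosolic genes (left) and 16 mitochondrial genes (right). Filled points passed an adjusted p-value of 0.05, and the 4 open points, Wars2, Hars2, Fars2 and Lars2, did not.

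Yars, which charges tRNA with tyrosine, had the lowest fold of the 36 in the authors' deposited table, -1.57 ± 0.11 on the log2 scale (adjusted p = 5.5e-43). That is 33.7% of the EtOH level, with a 95% interval of 29.0 to 39.2%. The fold and the base mean of 2389 together place it at about 3573 normalised reads per library in EtOH and 1205 in OHT, if both groups weigh equally. Nars, the asparagine enzyme, had the highest base mean of the cytosolic genes (9442) and fell by 1.43 ± 0.14 on the log2 scale (adjusted p = 2.8e-22) in the authors' deposited table, from about 13772 to 5112 normalised reads.

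Falls of similar size were found for enzymes of several unrelated amino acids. The leucine gene Lars fell by 1.34 ± 0.12 on the log2 scale (adjusted p = 5.6e-27) in the authors' deposited table. Its protein is also known as a leucine sensor upstream of mTORC1. In the authors' deposited table the threonine gene Tars stood at -1.32 ± 0.14 (adjusted p = 1.2e-20). Gars, whose single gene supplies the glycine enzyme of cytosol and mitochondrion, stood at -1.30 ± 0.12 (adjusted p = 6.4e-25), and the methionine gene Mars at -1.27 ± 0.13 (adjusted p = 1.7e-22), both in the authors' deposited table. The 95% intervals of Yars and of these 5 genes (Nars, Lars, Tars, Gars and Mars) overlap one another, so their order is within their error.

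A further group lay close to the median. Eprs, a fused enzyme for glutamate and proline, stood at -1.25 ± 0.13, Iars (isoleucine) at -1.19 ± 0.15, Cars (cysteine) at -1.18 ± 0.12, Aars (alanine) at -1.14 ± 0.12 and Farsb at -1.14 ± 0.16 on the log2 scale in the authors' deposited table. Rars (arginine) at -1.06 ± 0.20, Wars (tryptophan, the lowest cytosolic base mean) at -1.06 ± 0.14 and Kars at -1.05 ± 0.11 followed in the authors' deposited table. Kars, like Gars, encodes a cytosolic and a mitochondrial form. These 8 genes had levels between 42.1 and 48.2% of EtOH.

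The smallest falls were those of 6 genes. Vars, the valine enzyme that binds elongation factor eEF1, stood at -0.98 ± 0.18, Hars (histidine) at -0.90 ± 0.16, Dars (aspartate) at -0.82 ± 0.19, Sars (serine) at -0.81 ± 0.17 and Farsa at -0.78 ± 0.17 in the authors' deposited table. Farsa and Farsb encode the alpha and beta subunits of the phenylalanine enzyme, and their intervals of -1.11 to -0.44 and -1.46 to -0.82 overlap. Qars, the glutamine enzyme, had the smallest fall of the class, -0.44 ± 0.14 on the log2 scale (adjusted p = 0.0031) in the authors' deposited table, which leaves 73.5% of the EtOH level (95% interval 61.1 to 88.4%). The 95% intervals of 13 other cytosolic genes lie wholly below that of Qars.

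Grouping the cytosolic genes by function gave like medians for complex membership and unlike medians for known ATF4 targets. The 8 genes of the multisynthetase complex, a large assembly of synthetases with scaffold proteins, had a median of -1.13 on the log2 scale, and the 12 others had -1.14. The 2 catalytic classes, which differ in the fold of the active site, had cytosolic medians of -1.19 for class I (10 genes, with Eprs counted here for its glutamate part) and -1.10 for class II (10 genes). The 12 genes often listed as ATF4 targets had a median of -1.26 and a range of -1.57 to -0.81, and 11 of them fell by at least 2-fold. The other 8 had a median of -0.94 and a range of -1.14 to -0.44, and 3 of them fell by at least 2-fold. Over all genes tested, 7.30% were lower by at least 2-fold. These lists were set with results of these data known, so the difference is a description with no test.

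Promoter sequences were searched for the C/EBP-ATF composite motif, an element that ATF4 is known to bind together with C/EBP proteins. Windows of 250 bases before to 50 after the RefSeq start (GRCm38.p6) were at hand for 13 cytosolic and 14 mitochondrial members. The motif TGATGNAA, on either strand, occurred in 5 of the 13 cytosolic windows (38.5%) and in 0 of the 14 mitochondrial windows, beside 4.51% of the 27025 genes with a window. Among the 7697 such genes whose base mean reached 100 the share was 2.82%. The match nearest the start is shown for each of the 5 genes, because the matches set these genes apart from the other members with a window. Each is printed 5′ to 3′ on the strand that reads TGATG, with the motif in capitals:
Aars (chr8:111033840-111033869, minus strand): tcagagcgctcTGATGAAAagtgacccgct
Gars (chr6:55037960-55037989, minus strand): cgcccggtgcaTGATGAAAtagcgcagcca
Iars (chr13:49682126-49682155, minus strand): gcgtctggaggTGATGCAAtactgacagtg
Tars (chr15:11399655-11399684, plus strand): agctaaccagcTGATGCAAcgggactcctg
Yars (chr4:129189895-129189924, plus strand): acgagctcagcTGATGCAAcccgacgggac

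Counted on the gene's own strand with the start as base 1, the 5′-most base of the match lay at 10 in Aars, -30 in Gars, 8 in Iars, -15 in Tars and 4 in Yars. The matches in Aars, Iars and Yars thus lie just inside the transcribed part of the RefSeq model. A match of these letters is a description and does not show a bound site. All 5 genes are among the listed ATF4 targets, and all 5 fell by at least 2-fold, with values of -1.57 to -1.14 and a median of -1.30 on the log2 scale in the authors' deposited table. The 8 cytosolic genes with a window and no match were Dars, Eprs, Farsa, Farsb, Kars, Mars, Qars and Sars. They ranged from -1.27 to -0.44 with a median of -0.94, and 4 of them fell by at least 2-fold. The 7 cytosolic genes with no window ranged from -1.43 to -0.90 with a median of -1.06. Of these 7, 5 fell by at least 2-fold, and whether they hold the motif is unknown. These counts stand beside 7.30% of all genes tested that were lower by at least 2-fold. Cars, Hars, Lars, Nars, Rars, Vars, Wars, Hars2 and Pars2 had no entry in the promoter table. Yars2, with no match in its window, stood at -1.48, within the range of the genes that have one.

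The mitochondrial synthetase genes fell less evenly. Of the 16, 12 were lower and 0 higher, and their folds had a median of -0.72 on the log2 scale, from -1.48 to -0.06 in the authors' deposited table. Among the 9092 genes at or above the lowest mitochondrial base mean, 31.0% were lower. The median corresponds to 60.8% of the EtOH level. A fall of at least 2-fold was called in 2 of the 16, beside 7.30% of all genes tested. Base means were lower than in the cytosol, with a median of 410 beside 3431, and standard errors were wider, with a median of 0.20 beside 0.14.

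Yars2 and Ears2 had the largest falls among the mitochondrial genes. Yars2, the mitochondrial tyrosine enzyme, fell by 1.48 ± 0.14 on the log2 scale (adjusted p = 1.3e-23) in the authors' deposited table, from about 883 to 318 normalised reads per library, which is 36.0% of the EtOH level (95% interval 29.7 to 43.6%). Ears2, the mitochondrial glutamate enzyme, which also loads glutamate onto the glutamine tRNA for later amidation, stood in the authors' deposited table at -1.39 ± 0.22 (adjusted p = 3.55e-09), down from about 285 to 109 normalised reads. Tars2 (threonine) came next in the authors' deposited table, with a 95% interval of -1.24 to -0.76 (SE 0.12, adjusted p = 7.9e-15), then Sars2 (serine) at -0.95 ± 0.19 (adjusted p = 3.5e-06). The 95% interval of Yars2, -1.75 to -1.20, lies wholly below those of 11 of the 15 other mitochondrial genes, and that of Ears2, -1.83 to -0.96, below those of 4.

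The next 8 genes lay between -0.89 and -0.63 on the log2 scale. Nars2 (asparagine) stood at -0.89 ± 0.20, Vars2 (valine) at -0.80 ± 0.19, Rars2 (arginine) at -0.79 ± 0.21 and Mars2 (methionine) at -0.72 ± 0.23 in the authors' deposited table. Iars2 (isoleucine) was at -0.71 ± 0.15, Cars2 (cysteine) at -0.68 ± 0.15, Aars2 (alanine) at -0.65 ± 0.21 and Pars2 (proline) at -0.63 ± 0.23 in the authors' deposited table. Their intervals all overlap, so no order can be read among them.

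For 4 mitochondrial genes no change was called. Wars2 (tryptophan), the member with the lowest base mean (183), had a log2 fold change of -0.33 ± 0.20 (adjusted p = 0.16), Hars2 (histidine) -0.28 ± 0.14 (adjusted p = 0.079) and Fars2 (phenylalanine) -0.24 ± 0.19 (adjusted p = 0.31) in the authors' deposited table. At their standard errors, a change of 0.45, 0.31 and 0.43 on the log2 scale, respectively, was needed for a call. With all folds centred on the median of the tested genes, Hars2 passed the threshold (adjusted p = 0.034).

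Lars2, the mitochondrial leucine enzyme, combined the highest base mean with the widest error. Its base mean of 11013 was the highest of all 36 members, and in the authors' deposited table it stood at -0.06 ± 0.29 on the log2 scale (adjusted p = 0.88). The 95% interval of its OHT level, 64.4 to 142% of EtOH, spans a moderate fall and a moderate rise. Per kb of transcript it had 2828 normalised reads, while the other mitochondrial genes had 32.0 to 509 and the cytosolic genes 509 to 3440. Its standard error was the widest of the members, although genes with a high base mean usually have narrow errors: the median was 0.15 among tested genes at or above a base mean of 1442. What sets this level and this spread was not tested.

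**Figure D2:**
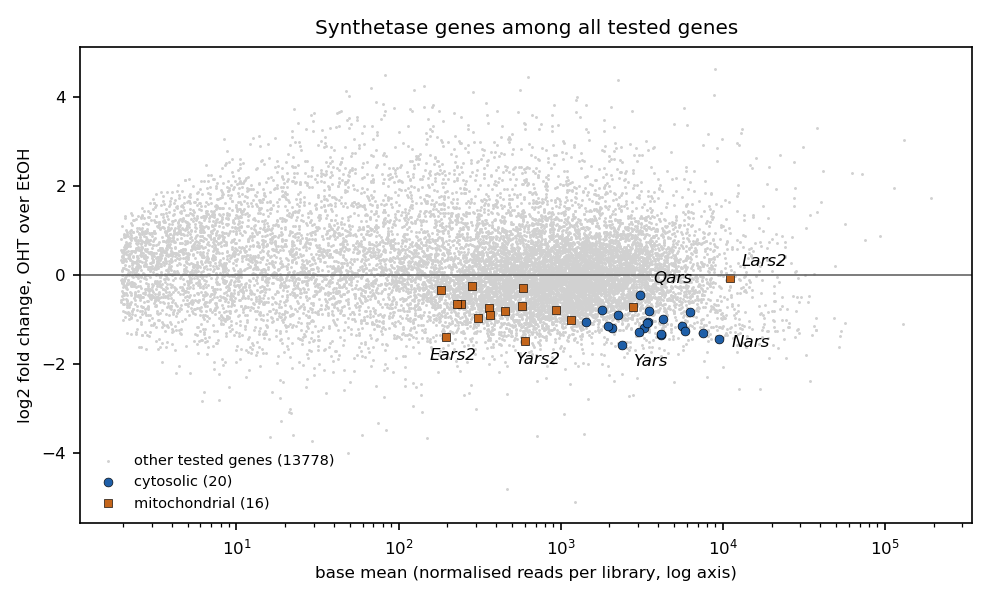
Base mean (normalised reads per library, log axis) against log2 fold change, OHT over EtOH, for all 13814 tested genes, with 20 cytosolic synthetases as circles and 16 mitochondrial synthetases as squares. Lars2 lies furthest right among the members and near 0, and the other members lie further below 0 at base means from 183 to 9442.

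The comparison of the 2 compartments was also made amino acid by amino acid, which gave 17 pairs of a cytosolic and a mitochondrial gene. Eprs was paired with Ears2 and with Pars2, and Fars2 with Farsa and with Farsb. In 15 of the 17 pairs the cytosolic gene fell further, and the median of the differences, cytosolic minus mitochondrial, was -0.50 on the log2 scale. The 95% intervals did not overlap in 4 pairs: Lars and Lars2, Farsb and Fars2, Wars and Wars2, and Hars and Hars2. These 4 pairs hold the 4 mitochondrial genes with no call, and in each the cytosolic gene fell further. In the remaining 13 pairs the intervals overlapped, which does not show that the folds are alike. The difference within a pair was not tested, because the table does not give how the errors of 2 genes covary.

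The tyrosine pair was the closest in fold, at -1.57 for Yars and -1.48 for Yars2, and both led their compartment in the authors' deposited table. The mitochondrial gene had the larger fall in 2 pairs. For serine, Sars2 stood at -0.95 and Sars at -0.81, and for glutamate, Ears2 stood at -1.39 and Eprs at -1.25 in the authors' deposited table, differences of 0.14 each and within the errors. Leucine gave the widest gap, 1.28 on the log2 scale. In 16 of the 17 pairs the cytosolic gene had the higher base mean, and the leucine pair was the exception.

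**Figure D3:**
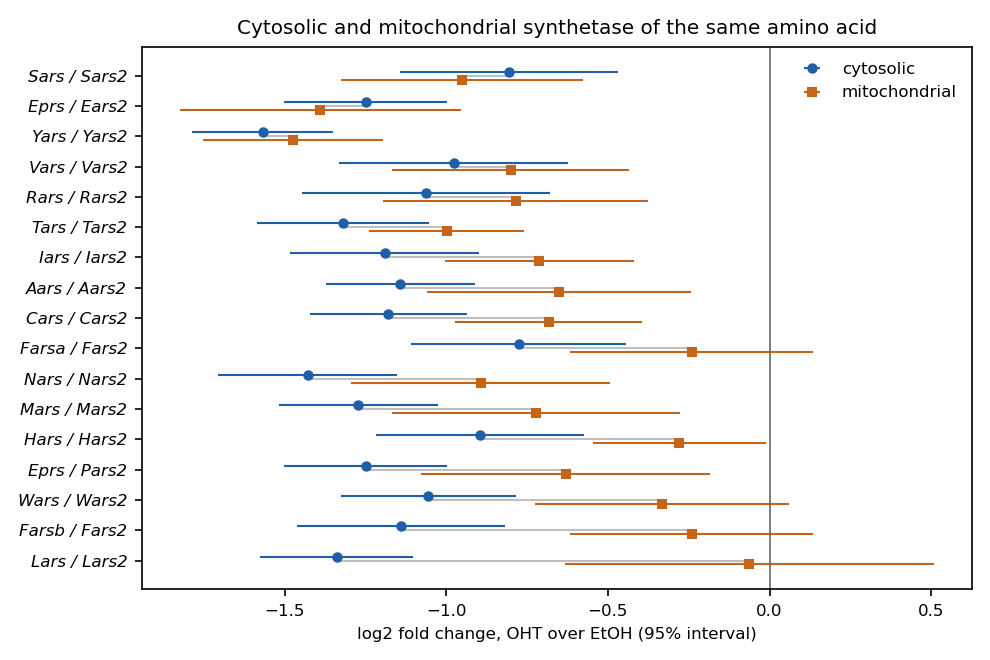
Log2 fold change, OHT over EtOH, of the cytosolic (circles) and mitochondrial (squares) synthetase gene for the same amino acid, with 95% intervals from the authors' standard errors, ordered by the difference. In 15 of 17 pairs the circle lies to the left, and the intervals separate in 4 pairs.

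Head-to-head genes were taken as protein-coding genes on opposite strands with starts up to 1000 bases apart, or overlapping by up to 200 bases. Of the 36 members, 8 had such a neighbour, which makes 7 head-to-head gene pairs in GENCODE M21 on GRCm38. In 4 pairs a gap separates the starts, and in 3 the genes overlap there. Yars (chromosome 4, 129189760 to 129219607, plus strand) starts 33 bases from S100pbp by its GENCODE start, which lies upstream of the RefSeq start used above. S100pbp had a log2 fold change of 0.23 ± 0.28 (adjusted p = 0.52) in the authors' deposited table beside -1.57 for Yars. Kars (chromosome 8, 111993443 to 112011323, minus strand) starts 75 bases from Terf2ip, a telomere protein gene, which in the authors' deposited table stood at 0.10 ± 0.14 (adjusted p = 0.59), beside -1.05 for Kars. Hars and Hars2 are themselves head to head and overlap, with starts 197 bases apart, at -0.90 and -0.28. In these 3 pairs the 95% intervals did not overlap.

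The other 4 head-to-head pairs had folds whose intervals overlapped. Such overlap does not show that the folds are alike, and the difference within a pair was not tested. Sars2 and Mrps12, a mitochondrial ribosomal protein gene 172 bases away, stood at -0.95 and -0.71 ± 0.14 (adjusted p = 2.0e-06) in the authors' deposited table. Rars2 and the origin recognition gene Orc3, 13 bases away, stood at -0.79 and -0.65 ± 0.11 (adjusted p = 2.9e-08). Ears2 and Ubfd1, which overlap with starts 88 bases apart, stood at -1.39 and -0.63 ± 0.17 (adjusted p = 9.4e-04) in the authors' deposited table. Their intervals only just met, at an upper end of -0.955 for Ears2 and a lower end of -0.964 for Ubfd1. Fars2 and Lyrm4, a gene of iron-sulphur cluster assembly, overlap with starts 114 bases apart. Their values were -0.24 and -0.25 ± 0.22 (adjusted p = 0.34), and neither gene was called.

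**Figure D4:**
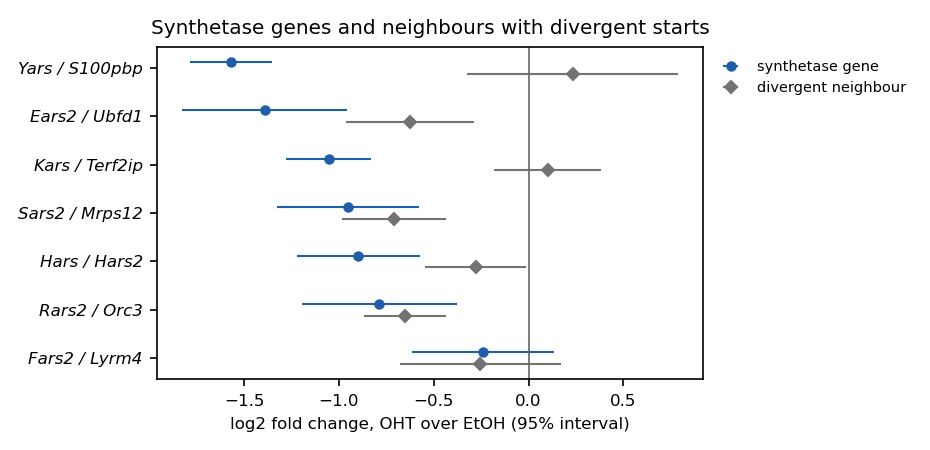
Log2 fold change, OHT over EtOH, of synthetase genes (circles) and of the protein-coding gene with a divergent start (diamonds), with 95% intervals from the authors' standard errors. Yars, Kars and Hars lie apart from their neighbours, and the intervals meet in the other 4 pairs.

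Other genes of tRNA charging and delivery were taken as whole lists by function, with earlier results of these data known. The counts below stand beside 23.4% lower and 25.5% higher over all genes tested. All 3 scaffold genes of the multisynthetase complex fell. In the authors' deposited table Eef1e1 stood at -1.66 ± 0.21 (adjusted p = 8.5e-14), Aimp2 at -1.19 ± 0.16 (adjusted p = 3.1e-12) and Aimp1 at -1.18 ± 0.18 (adjusted p = 9.7e-10). All 4 genes of the eEF1 complex, which carries charged tRNA to the ribosome, fell, with a median of -1.19. In the authors' deposited table Eef1b2 stood at -1.38 ± 0.20, Eef1g at -1.28 ± 0.17 and Eef1a1 at -1.10 ± 0.16. All 4 trans-editing genes, whose products clear mischarged tRNA, fell, with a median of -1.14, and Dtd1 stood at -1.45 ± 0.17, Aarsd1 at -1.23 ± 0.14 and Dtd2 at -1.05 ± 0.19 in the authors' deposited table.

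Lists of genes for the same process in mitochondria had medians nearer to 0 than the lists above. This was not particular to mitochondria, as the selenocysteine list described below had a median of -0.55. Over all genes tested, 23.4% were lower and 25.5% were higher. Among genes at or above the lowest mitochondrial synthetase base mean, 31.0% were lower. Of 4 genes for amidation of the glutamine tRNA and formylation of the initiator, 3 fell and 0 rose (median -0.42). Gatb stood at -0.81 ± 0.17, Qrsl1 at -0.44 ± 0.18 and Gatc at -0.41 ± 0.15 in the authors' deposited table, and the formyltransferase gene Mtfmt was not called (-0.37 ± 0.18, adjusted p = 0.068). These 3 subunits make the amidotransferase that completes the work of Ears2. All 8 genes of mitochondrial tRNA processing and modification fell, with a median of -0.70, and Prorp (under an older name) stood at -0.99 ± 0.20, Trnt1 at -0.86 ± 0.17 and Trmu at -0.83 ± 0.21 in the authors' deposited table. Of 9 mitochondrial translation factors 7 fell and 0 rose, with a median of -0.52, and Tsfm stood at -1.08 ± 0.19, Mtrf1 at -1.08 ± 0.25 and Mrrf at -1.01 ± 0.18 in the authors' deposited table.

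Genes that make or import amino acids had a median of -1.75. Of the 18, 16 fell and 1 rose, beside 23.4% lower and 25.5% higher over all genes tested. In the authors' deposited table Bcat1, a branched-chain aminotransferase gene, stood at -3.07 ± 0.47, the carrier gene Slc1a4 at -3.00 ± 0.24 and Phgdh, the entry to serine synthesis, at -2.72 ± 0.16. The asparagine synthetase gene Asns in the authors' deposited table stood at -1.76 ± 0.18 (adjusted p = 2.6e-21), beside -1.43 for Nars, which uses its product. The 1 that rose was the cystine carrier gene Slc7a11 (0.84 ± 0.24, adjusted p = 0.0013), while Cars, which charges cysteine, stood at -1.18 in the authors' deposited table.

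Of 10 genes from GCN2 to ATF4 and its targets 4 fell, 1 rose and 5 were not called, beside 23.4% lower and 25.5% higher over all genes tested. Atf4 in the authors' deposited table stood at -1.61 ± 0.14 (adjusted p = 2.3e-29), Trib3 at -2.78 ± 0.60, Chac1 at -1.87 ± 0.22 and Atf5 at -1.63 ± 0.25. Other genes of this list that respond to ATF4 were not called in the authors' deposited table: Ddit3 (-1.20 ± 0.66, adjusted p = 0.12), Ddit4 (-0.59 ± 0.32, adjusted p = 0.12) and Sesn2 (0.15 ± 0.17, adjusted p = 0.48). The GCN2 gene Eif2ak4, which encodes the sensor of uncharged tRNA, was not called in the authors' deposited table (0.07 ± 0.16, adjusted p = 0.76). The rise was that of Impact, which encodes an inhibitor of GCN2 activation (0.68 ± 0.24, adjusted p = 0.012). Of 5 genes for selenocysteine, which is made on its own tRNA after charging with serine by Sars, 3 fell and 0 rose. Their median was -0.55. Pstk, the kinase of that route, stood at -1.22 ± 0.20 (adjusted p = 1.2e-08), Eefsec at -0.83 ± 0.18 and Sephs2 at -0.55 ± 0.15 in the authors' deposited table.

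**Figure D5:**
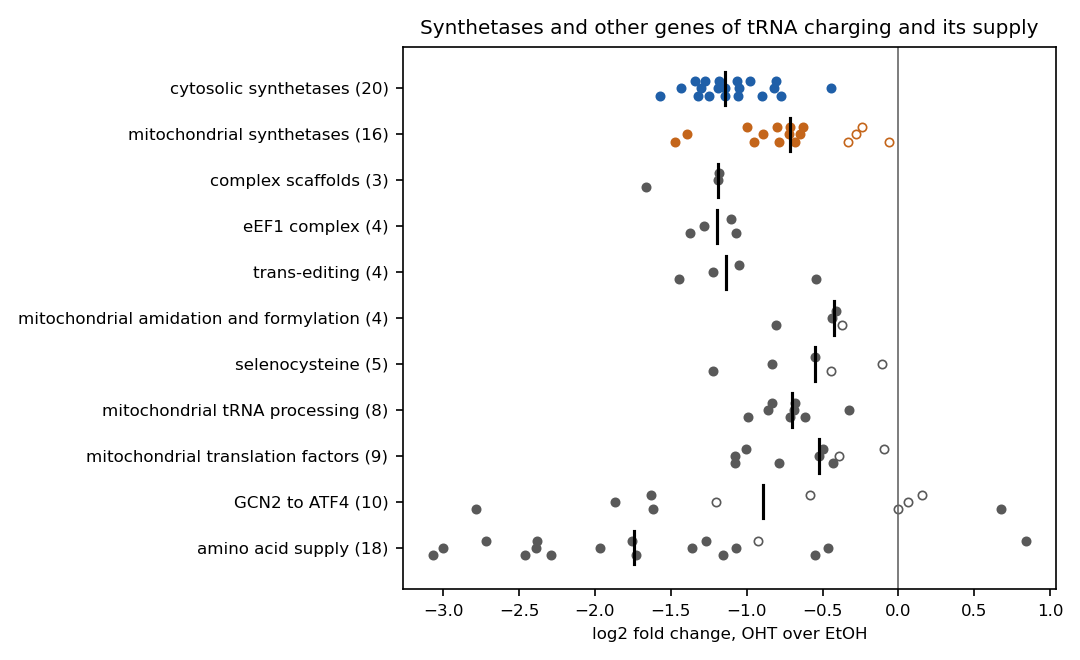
Log2 fold change, OHT over EtOH, of the synthetases and of 9 other lists, 1 point per gene, filled where the adjusted p-value was under 0.05, with a bar at the list's median and the number of genes in brackets. The cytosolic synthetases centre at -1.14 and the mitochondrial ones at -0.72, and the amino acid supply genes reach furthest to the left.

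Some members share exon bases with another annotated gene. The library kit named in the labels does not mark strand, so reads of overlapping genes cannot be told apart by it. This holds for 13 members, and at 10% or more of the exon bases for 2: Iars2, which overlaps Rab3gap2 on the opposite strand over 22.9% of its exon bases, and Aars, which overlaps Exosc6 on the same strand over 14.3%. Rab3gap2 stood at 0.18 ± 0.15 and Exosc6 at -1.30 ± 0.21 in the authors' deposited table. The values of Iars2 and Aars are uncertain to that extent.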

How the data were processed

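RNA was sequenced from 3 EtOH and 3 OHT samples of Riok2fl/fl MLL-AF9 cells. The submitters' processing notes list Trimmomatic (0.38.0), STAR (2.7.2b), HTSeq (0.9.1), DESeq, DESeq2 and mm10 without roles. The annotation and counting options were not stated. The authors deposited 1 comparison table with unnamed columns, taken from their values and mutual relations to be those of a DESeq2 result. The deposited columns hold a base mean (signal), the log2 fold change and its SE, the Wald score, and the p-value before and after Benjamini-Hochberg adjustment. The deposited score equalled fold over SE to within 7.6e-08, and the adjustment over 13814 genes was matched to within 2.3e-07. A gene was called where that adjusted value was under 0.05. With 0 columns per sample, no test on samples was made. The labels do not say that replicates were separate cultures, so p-values may measure technical spread only.

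From these values, 95% intervals were computed as fold ± the normal quantile times SE, and levels per group from base mean and fold. No SE exceeds 0.747, which points to folds shrunk by a prior. Positions and transcript lengths are from GENCODE M21 (GRCm38, the assembly mm10 names), and promoters from RefSeq (27 of 36 members, Mars under Mars1). No protein comparison was made. Centring and adjustment were tested on simulated data (pandas 2.3.3, scipy 1.17.1). Members and lists were chosen with earlier results of these data known. All members are named. Full statistics are given for the 6 cytosolic and 4 mitochondrial members with the largest called changes, members not called, and the extremes of base mean. Other lists are shown by up to 3 largest called changes, members against the majority, and Atf4. Mtfmt, Asns, Eif2ak4, Ddit3, Ddit4, Sesn2, Cdh5, Pecam1 and Col1a1 were named after their values were seen. Alternatives changed the threshold, filter, scaling and member set. Some items are not reported here.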

Additional observations from a re-analysis of the deposited data

How the results depend on the processing

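All 36 folds were below 0 and centring moved each further from 0, so no alternative could turn a direction, and only calls and sizes could change. With a fall of at least 2-fold required, 16 of all members and 2 mitochondrial members were lower, in place of 32 and 12. Over all genes tested the share was 7.30%, in place of 23.4%. Under the other thresholds, filters, scaling and without Lars2, counts stayed within 1.5 times. The difference of the class medians, -0.42, lay between -0.54 (members with wide SEs left out) and -0.41 (without the pull of the prior). That setting, leaving out Lars2, and limiting the promoter background to base means of 100 or more (2.82% with the motif in place of 4.51%) were chosen after seeing the data. Centring changed 1 call, that of Hars2 (-0.33, adjusted p = 0.034). No paired analysis was possible because the table holds no values per sample; leaving out replicates, a replicate block and DESeq2 against edgeR were not run for that reason. Depth per library is not in the table, and precision is limited most in mitochondrial genes, 13 of which had a base mean under 1000.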
